A study of Mus musculus with 6 samples.

Results

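The let-7 guide strands are the 10 mature mouse (mmu) miRNAs mmu-let-7a-5p, mmu-let-7b-5p, mmu-let-7c-5p, mmu-let-7d-5p, mmu-let-7e-5p, mmu-let-7f-5p, mmu-let-7g-5p, mmu-let-7i-5p, mmu-let-7k and mmu-miR-98-5p, called let-7a to let-7k and miR-98 in what follows. They were taken by name from the 1034 distinct mature miRNAs of the table, and for a name with more than 1 genomic copy the copy with the highest total was used. The RNA came from nephron progenitors, the cells of the outer kidney that give rise to nephrons, of CD1 mice at the embryonic stage E14.5 or on the day of birth (P0). Each of the 3 libraries per stage held the pooled kidneys of 1 litter, from which cells released by a brief digestion with collagenase A and pancreatin were pulled down on magnetic beads with an antibody to Itga8, an integrin of the progenitor surface. Total RNA was made into small RNA libraries with the QIAseq kit. No transgene, mutation or drug was given for either stage, so age was the labelled difference. The pools were enriched by 1 surface protein, and mRNA markers such as Six2 and Itga8 are not measured by a small RNA assay, so the cell type was not checked here by its defining genes.

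As background, let-7 miRNAs are made from hairpin precursors, and the guide strand is the arm that is loaded into an Argonaute protein and directs it to target mRNAs. All guide strands of the family begin with nearly the same bases, and the seed, the stretch that pairs with targets, is shared, so members can repress the same mRNAs, among them Hmga2, Lin28b and the Igf2bp genes. The RNA-binding proteins Lin28a and Lin28b bind the loop of many let-7 precursors and block their processing. In worms and mammals let-7 rises as tissues mature, and in the mouse kidney the Lin28 and let-7 axis is known for setting when the making of new nephrons stops.

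The mature sequences are shown because the members differ by so few bases that the counts of one depend on telling it from another. They are the RefSeq sequences (GRCm38.p6), matched by name for 10 of 10 members, 5′ to 3′, with the seed (bases 2 to 8) in capitals.
let-7a-5p: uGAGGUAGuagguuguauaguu
let-7b-5p: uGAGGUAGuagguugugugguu
let-7c-5p: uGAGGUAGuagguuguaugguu
let-7d-5p: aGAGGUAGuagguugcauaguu
let-7e-5p: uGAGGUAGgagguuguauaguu
let-7f-5p: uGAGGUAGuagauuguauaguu
let-7g-5p: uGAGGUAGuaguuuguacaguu
let-7i-5p: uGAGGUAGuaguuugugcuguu
let-7k: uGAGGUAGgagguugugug
miR-98-5p: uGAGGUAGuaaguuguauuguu
All 10 members carried the seed GAGGUAG, and no other of the 885 miRNAs with a RefSeq sequence did. Counted from 1 at the 5′ end, with the let-7a base first, let-7c differed by A19G, let-7b by A17G and A19G, let-7e by U9G and let-7f by G12A. In the same notation let-7d differed by U1A and U16C, let-7g by G12U and U18C, miR-98 by G11A and A19U, and let-7i by G12U, A17G, U18C and A19U. let-7k, which is 19 bases long, differed from let-7b by U9G and from let-7e by A17G and A19G. Of the 10 members, 6 lay 1 base from another member. How many mismatches the counting allowed is not given in the sources used here, so whether reads were shared between such neighbours is not known.

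Loops of the precursors, the bases between both arms, are shown for let-7b and let-7c, with the letters GGAG in capitals. GGAG is the tetramer that the zinc knuckles of Lin28 bind.
let-7c-1: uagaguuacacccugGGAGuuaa
let-7c-2: uugggcucugccccgcucugcgguaa
let-7b: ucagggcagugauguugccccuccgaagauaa
The 11 hairpins named let-7 with RefSeq entries for both arms held GGAG in 9 loops, read on the hairpin strand only, against 52 of 644 hairpins of all kinds (8.07%). The loops of let-7b and let-7c-2 lacked these letters. The letters GAU, part of the site of the other Lin28 domain, were in 9 of the 11 loops and in 101 of the 644 (15.7%), and were lacking in let-7c-1 and let-7c-2. A match is a match of letters, not a site, and a loop without them says nothing about binding.

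Libraries differed in depth and in how far they stood apart. Whole reads recovered from the deposited values numbered 2237958 to 20101197 per E14.5 library and 18908913 to 28740989 per P0 library over the distinct miRNAs. On the first principal component (74.8% of the variance) the E14.5 libraries lay between -26.2 and -16.2, P0 replicates 2 and 3 at 33.2 and 33.5, and P0 replicate 1 between the groups at 1.14. P0 replicate 1 also correlated more closely with the E14.5 libraries (mean r = 0.948) than with the other P0 libraries (0.908), so the fits of the members and their neighbours, the neighbour ratios and the shares are given with and without it. Summed miRNA markers of endothelium (2 miRNAs, 26608 to 44921 TPM at E14.5 and 5634 to 8158 at P0), stroma (9, 85580 to 102772 and 33691 to 46708) and tubule epithelium (5, 4122 to 23183 and 500.2 to 1542) were lower in each P0 library than in each E14.5 library. Erythroid (5, 242 to 417 and 128 to 194) and leukocyte markers (4, 632 to 1202 and 454 to 629) did not overlap either, and no listed marker was at 0 in all libraries. Of all tested miRNAs, 46.4% were lower at P0 in TPM without overlap and 3.13% higher. In TPM, where limma (described further on) called 32.8% of all tested miRNAs lower and 1.34% higher, it called 2 endothelial, 1 erythroid, 0 leukocyte, 6 stromal and 5 epithelial markers lower and none higher. After median-of-ratios scaling, where 5.22% of all were called lower and 5.67% higher, it called 1 endothelial and 3 epithelial markers lower, 1 leukocyte marker higher and no erythroid or stromal marker. Their part in the let-7 values was not tested.

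The let-7 guide strands took a larger share of the miRNA reads at P0 than at E14.5. At E14.5 they made up 14.1% (95% Wilson interval 14.1 to 14.2), 16.5% (16.5 to 16.5) and 15.4% (15.3 to 15.4) of the reads in replicates 1, 2 and 3, the order in which values are given throughout. At P0 they made up 22.2%, 27.7% and 25.4%, with intervals that round to these values. The mean went from 15.3% ± 1.21 (SD, n = 3) to 25.1% ± 2.76 (SD, n = 3), a difference of 9.78 percentage points. The stages did not overlap, and P0 replicate 1 was the lowest P0 library but above all of E14.5. The two-sided exact permutation test gave p = 0.1, the smallest that 3 against 3 allows, so no value tested in this way can pass 0.05. The difference was 11.2 points without P0 replicate 1. In such pools, a higher level per cell and a larger share of cells with a high level cannot be told apart.

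Counted per miRNA, the table gives TPM, here reads divided by the end minus the start position (the mature length less 1 base) and scaled to 1000000 per library. Each difference was fitted with limma on log2(TPM + 1) over the 670 miRNAs whose mean reached 1 TPM and adjusted by Benjamini-Hochberg over them, with calls below 0.05. Since TPM are shares of a fixed total, the same fit was made after median-of-ratios scaling, which sets the typical miRNA level across libraries. Over everything tested, the median log2 fold change (P0 over E14.5) stood at -1.20 in TPM and at -0.17 after scaling, and every fold change below is to be read against that median. In TPM 229 miRNAs were called, 9 higher and 220 lower at P0, and after scaling 73, 38 higher and 35 lower.

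**Figure D1:**
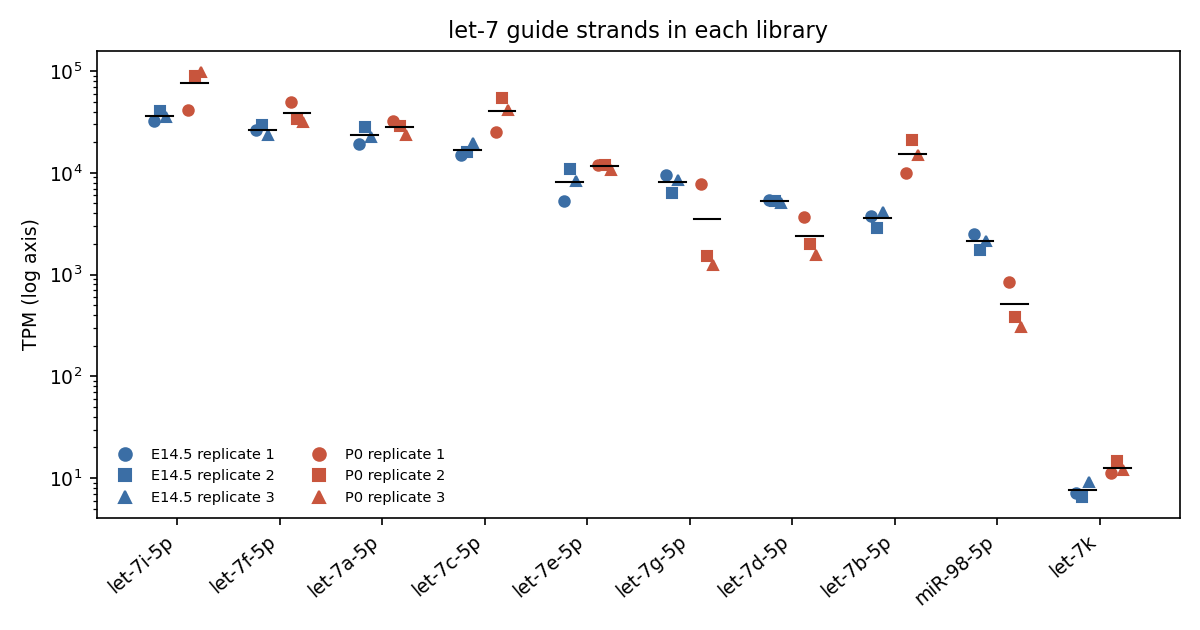
TPM (log axis) of the 10 let-7 guide strands in each of the 6 libraries, with E14.5 in blue, P0 in red, a marker shape per replicate number and a bar at each stage mean. let-7i, let-7c and let-7b sit higher in P0 replicates 2 and 3 than in P0 replicate 1, while let-7g, let-7d and miR-98 sit lower there.

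By mean level of the single listed copies, let-7i led at both stages, although let-7f was higher in P0 replicate 1. With copies summed, let-7f led in each E14.5 library, with 34.5%, 33.2% and 29.4% of the let-7 reads against 21.7%, 23.1% and 22.4% for let-7i. If a read was listed at both copies, which is not known, this sum counts it more than once. At P0 the summed shares were 40.6%, 20.5% and 21.3% for let-7f and 17.2%, 29.9% and 35.7% for let-7i, so the order of both depended on the library and on how copies were counted. For single copies at E14.5 the order by mean TPM was let-7i, let-7f, let-7a, let-7c, let-7e, let-7g, let-7d, let-7b, miR-98 and let-7k. Neighbours whose libraries overlapped there were let-7f with let-7a, let-7a with let-7c, and let-7e with let-7g. At P0 the order was let-7i, let-7c, let-7f, let-7a, let-7b, let-7e, let-7g, let-7d, miR-98 and let-7k. Overlap between neighbours was seen at P0 from let-7i through let-7a, between let-7b and let-7e, and between let-7g and let-7d. let-7b moved from the eighth place to the fifth and let-7c from the fourth to the second.

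Read against the background, the members were spread over both directions in TPM. Of the 10, 2 were called higher and 1 lower, where 34.2% of all tested miRNAs were called, 1.34% higher and 32.8% lower. The stages did not overlap for 5 members that were higher at P0 (background 3.13%) and for 2 that were lower (background 46.4%). After median-of-ratios scaling 6 were called higher (background 5.67%) and 0 lower (background 5.22%). No member with a lower mean reached an unadjusted p of 0.05 in the scaled limma fit or in limma-voom on the recovered reads with the same scaling. On that scale the stages did not overlap for 7 members that were higher (background 15.7%) and for miR-98, which was lower (background 19.7%). Without P0 replicate 1, 3 members were called higher in TPM (background 7.76%) and 3 lower (53.4%), and after scaling 7 were called higher (22.4%) and 2 lower (26%). The median log2 fold change of the members was 0.54 in TPM and 1.82 after scaling.

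**Figure D2:**
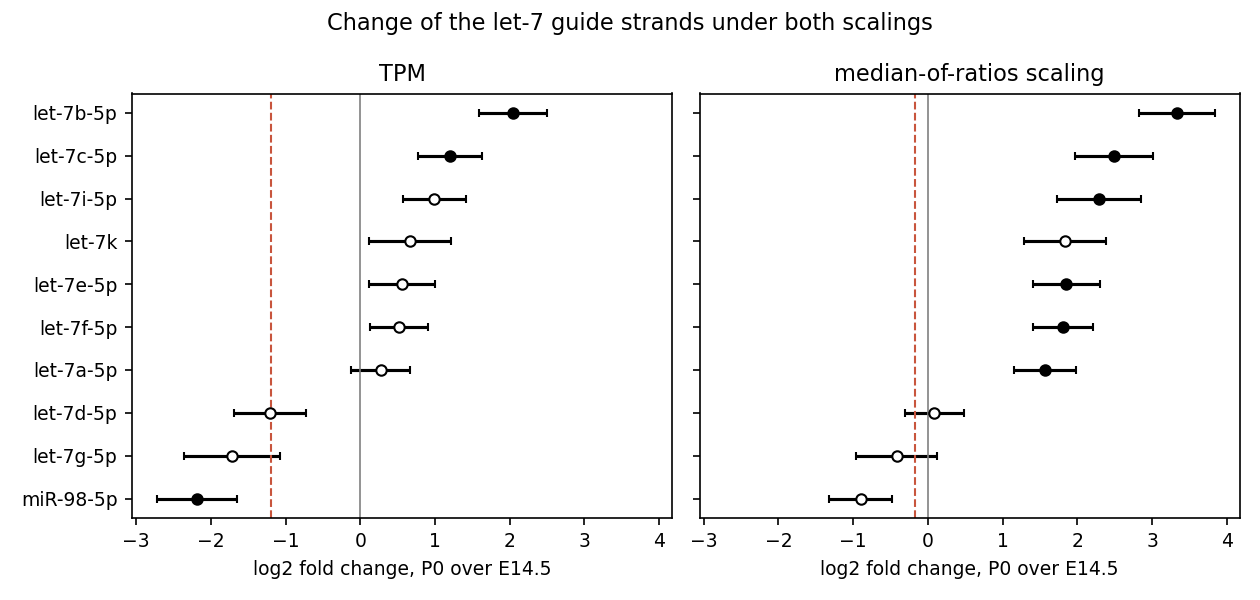
Log2 fold change (P0 over E14.5) of each let-7 guide strand with its standard error from limma, in TPM (left) and after median-of-ratios scaling (right), with filled points for an adjusted p below 0.05 and a dashed line at the median of all 670 tested miRNAs. let-7b has the highest value in both panels (2.04 and 3.33), and let-7d, let-7g and miR-98 the lowest.

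let-7b and let-7c had the highest log2 fold changes of the family. let-7b-5p (chr15:85707325-85707346, plus strand, in an exon of the long noncoding RNA gene Lncppara) was at 3799, 2853 and 4164 TPM at E14.5. At P0 it was at 9976, 20877 and 15051 TPM. Every P0 library was above every E14.5 library, and P0 replicate 1 was the nearest to them. The mean went from 3605 ± 677 (SD, n = 3) to 15301 ± 5455 TPM (SD, n = 3), 4.24 times the E14.5 mean. limma gave a log2 fold change of 2.04 (SE 0.46, adjusted p = 0.00698), the fourth highest of the 670, and 3.33 after scaling (SE 0.51, adjusted p = 0.0199), the second highest. In TPM let-7b was called in 6 of 6 fits that left out a library (adjusted p from 5.35e-05 to 0.0475). Without P0 replicate 1 its TPM log2 fold change was 2.32 (adjusted p = 5.35e-05). Among the 6 such fits after scaling it was called in that without P0 replicate 1 alone (3.85, adjusted p = 6.90e-05), and the other 5 fits reached adjusted p-values up to 0.178.

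let-7c has copies on chromosomes 16 and 15, and the values used were those listed for chr16:77599672-77599693 (plus strand, in an intron of the host gene Mir99ahg and, on the other strand, of Gm11146). It was at 14878, 15917 and 19773 TPM at E14.5 and at 25278, 54226 and 41384 TPM at P0. The stages did not overlap, with P0 replicate 1 again the lowest at P0. The log2 fold change was 1.20 (SE 0.43, adjusted p = 0.0453) and 2.49 after scaling (SE 0.52, adjusted p = 0.0319). In TPM the adjusted p lay between 0.103 and 0.210 when any library other than P0 replicate 1 was left out and was 0.000433 without that one. With log2 fold changes of 1.18 to 1.20, the TPM call also ended with limma-voom on the recovered reads (adjusted p = 0.0558), with a pseudocount of 0.1 (0.0524) and with no filter (0.0818). Among the 6 fits after scaling that left out a library, the call held in that without P0 replicate 1 alone (3.03, adjusted p = 9.43e-05).

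let-7b lies 709 bases from the second copy of let-7c on chromosome 15 (chr15:85706616-85706637, also in an exon of Lncppara). In the values listed for that copy let-7c was at 3040, 2020 and 3861 TPM at E14.5 and at 4440, 22154 and 18241 at P0. The log2 ratio of let-7b to this let-7c was 0.32, 0.50 and 0.11 at E14.5 and 1.17, -0.086 and -0.28 at P0, a mean difference of -0.041 with overlapping stages. It was -0.49 without P0 replicate 1, and the stages then did not overlap. With the copies of let-7c summed, the ratio differed by 0.65 and did not overlap.

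The copy on chromosome 16 has another neighbour, miR-99a-5p, which belongs to the miR-99 and miR-100 family with a different seed and starts 732 bases away on the same strand. miR-99a was at 497, 1157 and 814 TPM at E14.5 and at 450.2, 179 and 233 TPM at P0. It was lower in each P0 library, with a log2 fold change of -1.54 that was not called (SE 0.57, adjusted p = 0.0517), and -0.25 after scaling (SE 0.46, adjusted p = 0.730). Leaving out P0 replicate 1 gave -1.92 in TPM, which was called (adjusted p = 0.00114), and -0.40 after scaling (adjusted p = 0.412). The log2 ratio of let-7c to miR-99a was 4.90, 3.78 and 4.60 at E14.5 and 5.81, 8.24 and 7.46 at P0. It was higher in each P0 library, by 2.74 on average (exact two-sided permutation p = 0.1). This was the widest mean shift of the 9 neighbour pairs, close to those of let-7f to miR-98 and let-7d to let-7a described further on. Without E14.5 replicate 2 (2.42) or P0 replicate 2 (2.21) the let-7f to miR-98 shift was wider (2.92 and 2.66). A ratio within a library does not depend on scaling.

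let-7i, the member with the highest mean when single copies are compared, is encoded alone. Its guide strand (chr10:122985698-122985719, minus strand, in an exon of D630033A02Rik) was at 32599, 40246 and 35630 TPM at E14.5. It was at 41656, 90202 and 97989 TPM at P0, where replicate 1 lay just above the highest E14.5 library. The mean went from 36159 ± 3851 to 76616 ± 30526 TPM (SD, n = 3 each). In TPM the log2 fold change of 0.99 was not called (SE 0.43, adjusted p = 0.0835), and after scaling that of 2.29 was (SE 0.56, adjusted p = 0.0351). Without P0 replicate 1 let-7i was called under both, with 1.38 (adjusted p = 0.000423) and 2.91 (adjusted p = 9.43e-05). Leaving out any other library ended the call after scaling (adjusted p from 0.0784 to 0.180).

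let-7g, also alone at its locus (chr9:106178846-106178867, plus strand, in an intron of Wdr82, a subunit of histone methyltransferase complexes), went the other way in P0 replicates 2 and 3. It was at 9415, 6353 and 8587 TPM at E14.5 and at 7780, 1522 and 1231 TPM at P0. P0 replicate 1 lay within the E14.5 libraries and the other P0 libraries well below them. The log2 fold change of -1.71 was not called in TPM (SE 0.64, adjusted p = 0.0556), nor that of -0.42 after scaling (SE 0.55, adjusted p = 0.614). When limma was given a replicate block, let-7g was called lower in TPM (adjusted p = 0.0304) and not after scaling (adjusted p = 0.509). Without P0 replicate 1 it was called lower under both, with -2.55 (adjusted p = 2.70e-05) and -1.02 (adjusted p = 0.0166). let-7i and let-7g, whose sequences both differ from let-7a by G12U and U18C, thus lay on opposite sides of E14.5 in those libraries.

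let-7k (chr5:147283257-147283275, minus strand, between annotated genes) was the rarest member. It was at 7.07, 6.58 and 9.14 TPM at E14.5 and at 11.1, 14.6 and 11.9 TPM at P0, with as few as 16 reads in a library. The stages did not overlap, but neither log2 fold change was called (0.66, SE 0.55, adjusted p = 0.339 in TPM and 1.83, SE 0.55, adjusted p = 0.0576 after scaling). It was called after scaling without P0 replicate 1 (2.13, adjusted p = 0.00575) and not in TPM (0.74, adjusted p = 0.207). let-7k lies 1 base from the far more abundant let-7b, and how the counting told their reads apart is not given in the sources used here.

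Chromosome 13 carries let-7a, let-7f and let-7d within 2161 bases on the minus strand, in exons of the lincRNA 6720427I07Rik. let-7d-5p (chr13:48536078-48536099) has no other copy, so its counts are those of the cluster. It was at 5360, 5340 and 5011 TPM at E14.5, a tight group, and at 3688, 1998 and 1571 TPM at P0. Each P0 library was below each E14.5 library, and P0 replicate 1 was again the nearest. The log2 fold change was -1.21 in TPM (SE 0.48, adjusted p = 0.0649), about the median of all miRNAs, and 0.085 after scaling (SE 0.40, adjusted p = 0.896). The direction of let-7d thus depended on the scaling. Without P0 replicate 1 it was called lower in TPM (-1.56, adjusted p = 0.000360) and stood at -0.033 after scaling.

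At P0 let-7d was lower relative to the values listed for its neighbours in the same cluster. Both neighbours have another copy with the identical mature sequence, so which copy their reads came from is not known. The log2 ratio of let-7d to the let-7f listed at chr13:48537889-48537910 was -2.25, -2.41 and -2.20 at E14.5 and -3.70, -3.81 and -4.09 at P0. The groups were tight and apart in all 6 libraries, P0 replicate 1 included, with a mean difference of -1.58. Against the let-7a listed at chr13:48538239-48538260, the ratio went from 1.32, 1.06 and 1.07 to -0.59, -1.86 and -1.95, a mean difference of -2.62. The let-7a to let-7f ratio of this cluster was higher at P0 by 1.04 and also did not overlap. With copies summed, the let-7d to let-7a difference was -1.64 and the let-7a to let-7f difference -0.018, so the size of the former and the presence of the latter depended on how reads of identical copies were listed.

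let-7a, the form whose sequence serves as the reference of the family, had overlapping stages in TPM in the copy used. In the values listed on chromosome 13 it was at 2148, 2558 and 2388 TPM at E14.5 and at 5553, 7267 and 6071 at P0. The stages did not overlap there. The values used were those at chr9:41536732-41536753 (plus strand, in introns of 3110039I08Rik and Gm49317). It was at 19341, 28404 and 22669 TPM at E14.5 and at 32427, 28827 and 23591 TPM at P0. The log2 fold change was 0.27 (SE 0.40, adjusted p = 0.583) in TPM and 1.57 (SE 0.42, adjusted p = 0.0448) after scaling. That last call was lost in each of the 5 fits that left out a library other than P0 replicate 1 (adjusted p up to 0.207) and with limma-voom on the same size factors (1.55, adjusted p = 0.0507). It held without P0 replicate 1 (1.70, adjusted p = 0.00195), where the TPM value was 0.17 (adjusted p = 0.579). Its neighbour miR-100-5p, 5295 bases away, was rare, at 90.5, 259 and 181 TPM at E14.5 and 127, 64.4 and 92.3 TPM at P0. Its log2 fold change was -0.83 (adjusted p = 0.278) in TPM and 0.46 (adjusted p = 0.547) after scaling, and -1.06 (0.0624) and 0.45 (0.435) without P0 replicate 1. The log2 ratio of let-7a to miR-100 was 7.72, 6.77 and 6.96 at E14.5 and 7.99, 8.78 and 7.98 at P0, higher in each P0 library and by 1.10 on average.

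let-7f and miR-98 lie 876 bases apart on chromosome X, in an intron of Huwe1, which encodes a ubiquitin ligase. let-7f-5p (chrX:151912353-151912374, plus strand) was at 26242, 29235 and 23795 TPM at E14.5 and at 49985, 33618 and 31863 TPM at P0. P0 replicate 1 was here the highest, and the stages did not overlap. In the values listed on chromosome 13 they overlapped, at 25502.6, 28472.5 and 23081.5 TPM at E14.5 and 48055.8, 28028 and 26761.8 at P0. For the chromosome X copy, the one used, the log2 fold change was 0.52 in TPM (SE 0.39, adjusted p = 0.302). After scaling it was called at 1.81 (SE 0.40, adjusted p = 0.0319). As for let-7a, the scaled call held in the fit without P0 replicate 1 and in none of the other 5 that left out a library (adjusted p up to 0.180). In that fit let-7f stood at 1.84 after scaling (adjusted p = 0.00103) and at 0.31 in TPM (adjusted p = 0.265).

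miR-98-5p (chrX:151913229-151913250, plus strand) had the lowest log2 fold change of the family under both scalings. It was at 2529, 1750 and 2152 TPM at E14.5 and at 853, 384 and 303 TPM at P0. The stages were well apart in all 6 libraries. Its mean went from 2144 ± 390 to 513 ± 297 TPM (SD, n = 3 each), 0.239 of the E14.5 mean. The log2 fold change was -2.19 (SE 0.54, adjusted p = 0.0101) in TPM, where most miRNAs were lower, and -0.90 (SE 0.42, adjusted p = 0.162) after scaling. The TPM call was lost without E14.5 replicate 3 (adjusted p = 0.0548) and without P0 replicate 3 (0.0511), and without P0 replicate 1 miR-98 was called lower in TPM (-2.63, adjusted p = 3.07e-05) and after scaling (-1.10, adjusted p = 0.0147).

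The chromosome X pair diverged. The log2 ratio of let-7f to miR-98 was 3.37, 4.06 and 3.47 at E14.5 and 5.87, 6.45 and 6.71 at P0. All 3 P0 libraries lay above all 3 E14.5 libraries, with a mean difference of 2.71 that ranged from 2.53 to 2.94 when a library was left out. Both come from the same intron, but let-7f has a second copy on chromosome 13 with the identical mature sequence, so which copy its reads came from is not known.

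let-7e keeps company with miR-99b and miR-125a on chromosome 17, in an intron of Spaca6. let-7e-5p (chr17:17830366-17830387, plus strand) was at 5342, 10876 and 8286 TPM at E14.5 and at 11989, 12074 and 10634 TPM at P0. E14.5 replicate 2 overlapped the P0 libraries. The log2 fold change was 0.56 (SE 0.44, adjusted p = 0.316) in TPM and 1.85 (SE 0.45, adjusted p = 0.0348) after scaling. That call, too, was kept without P0 replicate 1 and lost without any other library (adjusted p up to 0.199). The values without P0 replicate 1 were 2.06 after scaling (adjusted p = 0.00175) and 0.53 in TPM (adjusted p = 0.160).

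Its neighbours are 172 and 451 bases away. miR-99b-5p was at 2190, 4680 and 3157 TPM at E14.5 and at 5236, 3991 and 5154 TPM at P0, and its log2 fold change was 0.58 (SE 0.47, adjusted p = 0.329) in TPM and 1.87 (SE 0.45, adjusted p = 0.0342) after scaling. miR-125a-5p, the mammalian relative of the worm timing miRNA lin-4, was at 5245, 10173 and 7113 TPM at E14.5 and at 19987, 20731 and 14391 TPM at P0. It was called higher under both scalings (1.32, SE 0.44, adjusted p = 0.0355 and 2.62, SE 0.45, adjusted p = 0.0279). Leaving out P0 replicate 1 kept miR-125a called under both (1.25, adjusted p = 0.00555 and 2.78, adjusted p = 0.000621), and gave 0.51 (0.203) in TPM and 2.04 (0.00208) after scaling for miR-99b. Both calls of miR-125a also held without E14.5 replicate 2 and were lost without E14.5 replicate 1, E14.5 replicate 3, P0 replicate 2 or P0 replicate 3 (adjusted p from 0.0734 to 0.145 in TPM and from 0.0543 to 0.180 after scaling). The scaled call of miR-99b was lost without any library other than P0 replicate 1 (adjusted p from 0.0549 to 0.184). The log2 ratio of let-7e to miR-99b was 1.29, 1.22 and 1.39 at E14.5 and 1.20, 1.60 and 1.04 at P0, a difference of -0.019 with overlapping stages. Against miR-125a it was 0.026, 0.096 and 0.22 at E14.5 and -0.74, -0.78 and -0.44 at P0, lower in each P0 library, with a mean difference of -0.77.

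**Figure D3:**
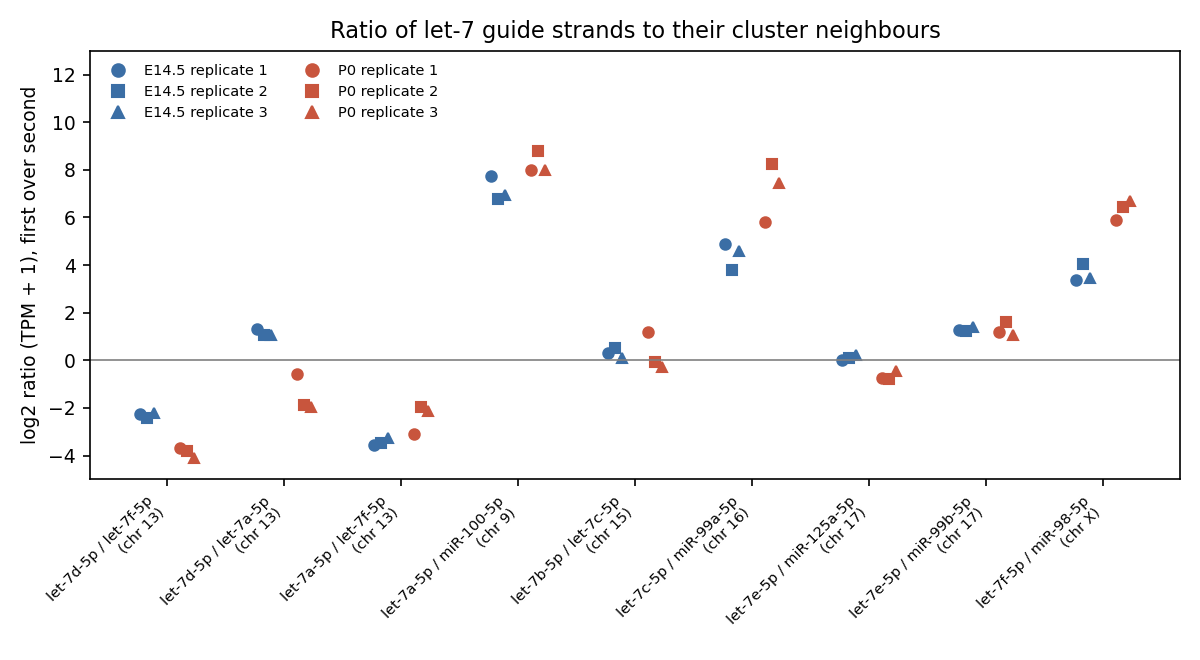
Log2 ratio of TPM + 1 of each let-7 guide strand to its neighbour within 10 kb on the same strand, per library, with E14.5 in blue, P0 in red and a marker shape per replicate number. The let-7c to miR-99a and let-7f to miR-98 ratios are higher at P0, both let-7d ratios are lower, and let-7b to let-7c and let-7e to miR-99b overlap.

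Across the 9 neighbour pairs the stages did not overlap in 7, with 4 ratios higher and 3 lower at P0. Among all 691 pairs of tested miRNAs within 10 kb on a strand, 40.7% did not overlap. The smallest p adjusted over the 9 pairs was 0.129, and the smallest each exact permutation test allows was 0.1. The pairs are not independent of each other, since 3 come from 1 cluster and let-7a, let-7c, let-7d, let-7e and let-7f enter more than 1. Leaving out P0 replicate 1 gave differences of -1.66 for let-7d to let-7f, -3.06 for let-7d to let-7a, 1.40 for let-7a to let-7f, 1.23 for let-7a to miR-100, 3.42 for let-7c to miR-99a, 2.94 for let-7f to miR-98, -0.72 for let-7e to miR-125a and 0.023 for let-7e to miR-99b. The ratio of let-7e to miR-99b overlapped there, and did not overlap without P0 replicate 2 (-0.18).

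Shares within the family, which do not depend on scaling, showed a shift toward let-7b and away from let-7d, let-7g and miR-98. let-7b made up 3.18%, 2.02% and 3.20% of the let-7 reads at E14.5 and 5.43%, 8.57% and 6.73% at P0. miR-98 made up 2.12%, 1.24% and 1.65% at E14.5 and 0.464%, 0.158% and 0.136% at P0. let-7d went from 4.49%, 3.79% and 3.85% to 2.01%, 0.820% and 0.703%. let-7g went from 7.88%, 4.51% and 6.60% to 4.24%, 0.625% and 0.550%. In these 4 the stages did not overlap, while they overlapped in the other 6. Expressed over the let-7 sum, 0.448% of all tested miRNAs were higher without overlap and 63% lower. These shares are no yardstick for the members, whose own shares must sum to 100%. Exact two-sided permutation tests gave p = 0.1 for these 4 and 0.25 after adjustment over the 10.

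The major members kept or exchanged places depending on the library. let-7i made up 27.3%, 28.5% and 27.4% of the let-7 reads at E14.5 and 22.7%, 37.0% and 43.8% at P0. let-7c made up 12.4%, 11.3% and 15.2% and then 13.8%, 22.2% and 18.5%. let-7f went from 22.0%, 20.7% and 18.3% to 27.2%, 13.8% and 14.2%, and let-7a from 16.2%, 20.1% and 17.4% to 17.7%, 11.8% and 10.5%. P0 replicate 1 lay with or beyond E14.5 on the side away from the other P0 libraries for let-7i and let-7f. let-7e stayed between 4.47% and 7.71% in all 6 libraries. For 8 members the stages did not overlap without P0 replicate 1, with let-7i, let-7c and let-7b higher and let-7a, let-7f, let-7d, let-7g and miR-98 lower. Over the let-7 sum and in the same 5 libraries, 5.67% of all tested miRNAs were higher without overlap and 75.1% lower. Again these are no yardstick for the members, and stages separate more easily with a library fewer.

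**Figure D4:**
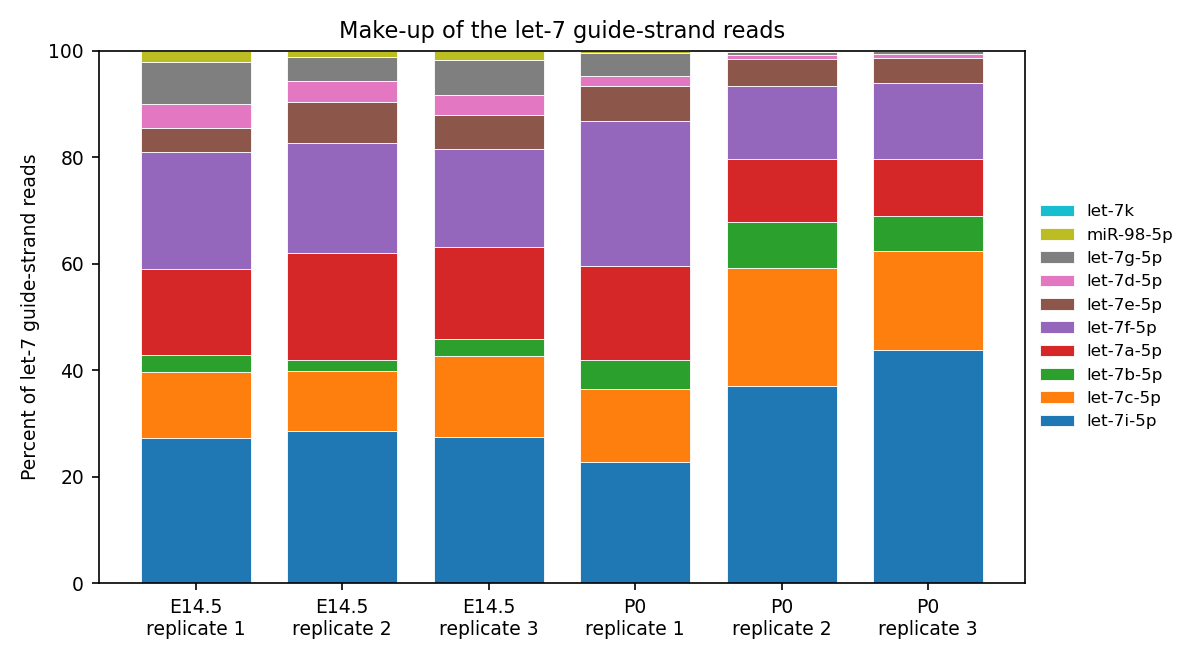
Make-up of the let-7 guide-strand reads in each library, as stacked percentages that sum to 100. let-7i, let-7c and let-7b together take 41.9% to 45.8% in the E14.5 libraries and in P0 replicate 1, and 67.8% and 69.1% in P0 replicates 2 and 3.

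Groupings chosen after the values were seen sum this up without a test. let-7i, let-7c and let-7b together held 42.9%, 41.9% and 45.8% at E14.5 and 41.9%, 67.8% and 69.1% at P0. let-7d, let-7g and miR-98 together held 14.48%, 9.54% and 12.1% at E14.5 and 6.71%, 1.60% and 1.39% at P0, and only this sum kept the stages apart in all libraries.

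Listing of identical copies bears on let-7a, let-7c and let-7f. For let-7f the values listed on chromosome 13 were 97.2%, 97.4% and 97.0% of those on chromosome X at E14.5 and 96.1%, 83.4% and 84.0% at P0. For let-7a the chromosome 13 values were 11.1%, 9.01% and 10.5% of the chromosome 9 values at E14.5 and 17.1%, 25.2% and 25.7% at P0, with no overlap. For let-7c the chromosome 15 values were 20.4%, 12.7% and 19.5% of those on chromosome 16 at E14.5 and 17.6%, 40.9% and 44.1% at P0, with overlap through P0 replicate 1. Of 24 miRNAs with a pair of listed copies averaging 100 TPM or more, the smaller was at 90% or more of the larger in 13 and under 50% in 7. The copies of a name share 1 mature sequence, and how the counting divided their reads is not given in the sources used here.

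**Figure D5:**
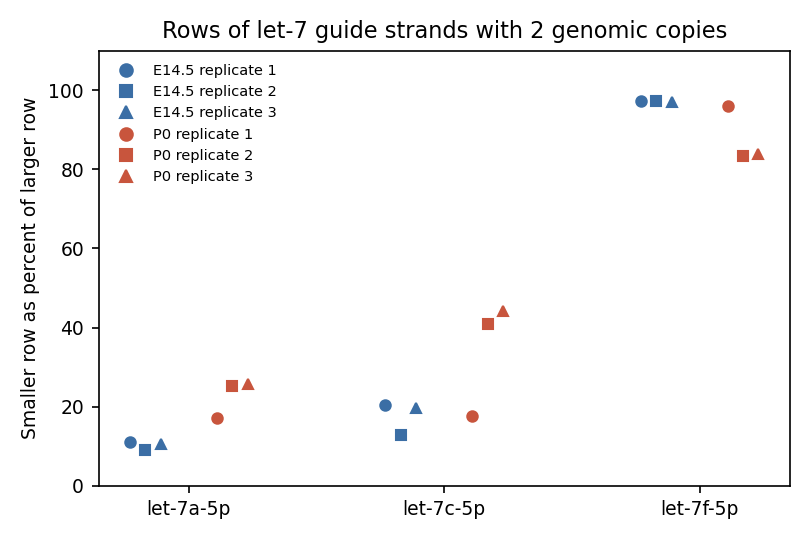
TPM listed for the smaller genomic copy as a percentage of the larger, per library, for the 3 let-7 guide strands with a pair of listed copies, with E14.5 in blue and P0 in red. The let-7f copies carry nearly the same values at E14.5, while the let-7a and let-7c copies differ severalfold.

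Per the authors' deposited table, which lists each copy on its own, 6 of the 13 let-7 entries had an adjusted p below 0.05 with a positive log2 fold change and none with a negative one, where 5.16% of all 1104 entries were called higher and 5.16% lower. In the authors' deposited table the called entries were let-7b (3.49, SE 0.56, adjusted p = 2.04e-07), let-7c on chromosome 15 (3.82, SE 0.61, adjusted p = 1.99e-07) and on chromosome 16 (2.56, SE 0.58, adjusted p = 0.000559). The authors' deposited table also called let-7a on chromosome 13 (2.61, SE 0.57, adjusted p = 0.000343), let-7i (2.35, SE 0.63, adjusted p = 0.00361) and let-7f on chromosome X (1.62, SE 0.56, adjusted p = 0.0309). It gave log2 fold changes of -0.97 for miR-98 (adjusted p = 0.261), -0.51 for let-7g (adjusted p = 0.617) and -0.11 for let-7d (adjusted p = 0.916) in the authors' deposited table. Positive but not called in the authors' deposited table was let-7a on chromosome 9, the copy used here (1.33, adjusted p = 0.0900). The same held in the authors' deposited table for let-7e (1.58, adjusted p = 0.0537), let-7f on chromosome 13 (1.46, adjusted p = 0.0568) and let-7k (2.11, adjusted p = 0.0574).

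Passenger strands, the arms that are mostly discarded after processing, were a smaller fraction of the guide strands at P0. Together the 12 of the family amounted to 0.710%, 0.410% and 0.664% of the guide-strand TPM at E14.5 and to 0.387%, 0.141% and 0.112% at P0. Each P0 library lay below each E14.5 library, although P0 replicate 1 was close to E14.5 replicate 2. In the limma fit on TPM 11 of the 12 had a log2 fold change below 0, and let-7f-1-3p (-2.88, adjusted p = 0.0116) and miR-98-3p (-3.45, adjusted p = 0.0121) were called lower, against the background of 32.8%. After median-of-ratios scaling 9 of the 12 were below 0 and limma called 0, with 2 lower and 1 higher at an unadjusted p under 0.05, and limma-voom with the same scaling also called 0, with 1 lower and 2 higher at an unadjusted p under 0.05. Without P0 replicate 1, 9 of the 12 were called lower in TPM (background 53.4%), and after scaling 5 were called lower (background 26%) and let-7d-3p higher (1.85, adjusted p = 0.00204; background 22.4%). let-7d-3p was the exception in TPM, at 168, 154 and 232 TPM at E14.5 and 176, 266 and 195 TPM at P0 with overlapping stages (log2 fold change 0.20, adjusted p = 0.775).

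Outside the family, the miRNAs with the pattern most like the let-7 sum over the 6 libraries were taken from 215 candidates averaging 100 TPM or more, by Pearson's r of log2(TPM + 1). They were miR-676-3p (0.972), miR-328-3p (0.941), miR-182-5p (0.913), miR-125a-5p (0.897) and miR-196a-5p (0.855). miR-676-3p was at 226, 441 and 273 TPM at E14.5 and at 656, 927 and 991 TPM at P0. For let-7b alone the nearest were miR-328-3p (0.891), miR-676-3p (0.867), miR-140-3p (0.860), miR-125a-5p (0.809) and miR-196a-5p (0.799). These correlations describe 6 libraries that share a stage difference and a fixed total.

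GC content of the guide strands ran with their fold changes. It was 31.8% in let-7f and miR-98, 36.4% in let-7a and let-7g, 40.9% in let-7c, let-7d, let-7e and let-7i, 45.5% in let-7b and 52.6% in let-7k. Spearman's rho between GC content and log2 fold change was 0.71 over the 10 members in TPM and 0.67 after scaling, and 0.38 and 0.35 over all 582 tested miRNAs with a sequence. The points share bases and libraries, so no p is given. With a line on GC removed after median-of-ratios scaling, 6 members were called higher, where 5.84% of the 582 were called higher and 6.53% lower, and the 6 had adjusted p-values from 0.0117 to 0.0294, with let-7b at 3.51 and let-7f at 2.61. miR-98 then stood at -0.098 (adjusted p = 0.876) and let-7g at 0.17 (adjusted p = 0.793). The part of GC content in these values was not tested further.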

How the data were processed

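Small RNA of 3 E14.5 and 3 P0 litter pools was analysed. The authors deposited 1 table of 1104 entries (1034 distinct miRNAs, of which 52 have more than 1 entry) with TPM per library, per the file headers. It also holds the authors' deposited baseMean (a normalised signal), log2 fold change with its error, test statistic (a score), p-value and adjusted p-value. The submitters' processing notes name featureCounts, DESeq2 1.26.0 and the build mm10. The aligner, the trimming, the treatment of molecular tags and of reads with several genomic matches are not given in the sources used here. The sign of the authors' deposited log2 fold change was read as P0 over E14.5 from the per-library values.

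Whole reads were recovered from TPM times end minus start (100% of values whole within 0.01), and median-of-ratios size factors from 589 entries gave back the authors' deposited baseMean signal within 4.75e-15. Wilson intervals (95%) treat each read as a separate molecule, which is not known, and do not cover the variation between litters. The entry with the highest total was used for names with copies.

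Stage was the only term of a limma 3.58.1 fit (trended variances, under R 4.3.3) to log2(TPM + 1) of miRNAs averaging 1 TPM or more, with Benjamini-Hochberg adjustment. Such fold changes understate the change of rare miRNAs. Single values were compared with two-sided exact permutation tests (Python 3.11.15, scipy 1.17.1). The fit was tested on simulated data with the means and spreads of log2(TPM + 1). It called 20% of changes of 1 log2 unit, 46% of 2, 84% of 3 and 96% of 4. Of its calls, 6.11% were unchanged miRNAs. All members were named, together with neighbours within 10 kb on a strand, the 5 miRNAs most like the family sum and like let-7b, and the passenger strands as a group. miR-125b, also considered as a neighbour, lay beyond 10 kb, and no ratio was formed. Members, lists and tests were chosen with earlier results of these data known. Alternatives were other scalings, limma-voom, pseudocount 0.1, no filter or a filter at 10 TPM, summed copies, a replicate block, leaving out each library, and, added after seeing the data, limma-voom with median-of-ratios factors and removal of a GC line. Gene context is from GENCODE M21 (GRCm38), and sequences are from RefSeq (GRCm38.p6). The precursor loop of miR-98 is not reported here.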

Additional observations from a re-analysis of the deposited data

How the results depend on the processing

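Scaling and single libraries set the calls. miRNAs called numbered 229 in TPM, 73 after median-of-ratios scaling, 63 after upper-quartile scaling (38 higher, 25 lower), 28 when limma-voom used the same scaling factors as the former (17 higher, 11 lower) and 72 with the GC line removed. Guide strands called higher (2 in TPM) were 6, 6, 5 and 6 under these, and 1 with limma-voom (4 of all 670 tested), with pseudocount 0.1 (6 of 670) and with no filter (6 of 1034). Guide strands called lower (1 in TPM) were 0 under these 4 (limma and limma-voom), also at an unadjusted p under 0.05. let-7d changed sign, to 0.085 after median-of-ratios scaling, 0.21 after upper-quartile scaling, 0.087 with limma-voom on those factors and 0.47 with the GC line removed, and let-7g stood at 0.17 with that line removed. The cause was not tested. The pool share differed by 13.5 percentage points without miR-196a-5p.

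Leaving out 1 library gave 66 to 410 calls in TPM and 0 to 324 after median-of-ratios scaling. The scaled counts were 0 without E14.5 replicate 1, E14.5 replicate 3 or P0 replicate 2 (limma; 139, 136 and 143 at an unadjusted p under 0.05, limma-voom not run), 7 without E14.5 replicate 2, 2 without P0 replicate 3 and 324 without P0 replicate 1. Guide strands called higher ranged from 1 to 3 in TPM and from 0 to 7 scaled, and those called lower from 0 to 3 and from 0 to 2. Over all 670 tested miRNAs the same fits called 1 to 52 higher and 65 to 358 lower in TPM. After scaling they called 0 to 150 higher and 0 to 174 lower. The scaled let-7d value ranged from -0.033 to 0.26, family shares without overlap from 4 to 8, neighbour pairs without overlap from 7 to 8, and the pool share difference from 8.47 to 11.2 points. A lone pair of libraries in a stage is assumed to vary like the other stage.

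The replicate numbers were not assumed to pair the samples. Deviations from the stage means correlated at 0.193, 0.183 and 0.0423 between same-number libraries and at -0.182 to 0.0770 between the others. Whether the numbers pair the samples was not tested. A replicate block gave 247 calls in TPM (12 higher and 235 lower of 670) and 77 scaled (41 higher and 36 lower). With it 2 guide strands were called higher and 2 lower in TPM, with let-7g among the lower at -1.71 (limma adjusted p = 0.0304). let-7k had as few as 16 reads in a library and each other member at least 6517, and no fit at matched depth was made.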

Other observations

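let-7j, which bears the family's name but not its seed, is no member of the list. It was at 14.48 to 21.8 TPM at E14.5 and at 22.0, 44.9 and 53.7 TPM at P0, with P0 replicate 1 just above the highest E14.5 library. How the counting told reads of let-7j from those of the far more abundant members is not given in the sources used here. miR-196a-5p, the most abundant miRNA outside the family, was at 22892, 35879 and 37970 TPM at E14.5 and at 28012, 161118 and 171747 TPM at P0. P0 replicate 1 lay within the E14.5 libraries for it, as for let-7g.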
